A study of Mus musculus with 3 samples.

Results

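The members are the mouse genes of the organic ion, bile salt and ABC transporter families, chosen by symbol as every gene whose name starts with Slc10a, Slc22a, Slc47a, Slco, Abcb, Abcc or Abcg. The reference holds 77 such genes, of which 74 had a probe named on the array, out of 20647 genes with a named probe. The symbols without a named probe were Slc10a4l, Slc22a30 and Slco6b1. Members were divided by textbook role into 7 carriers of basolateral uptake, 8 of canalicular export and 62 others.

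RNA of 3 groups of female mouse tissue was measured on 1 single-colour Agilent array each. The SiO2-3TF-3C spleen came from spleens given SiO2 (silica) and 3TF-3C, a treatment whose name the labels do not explain, and the series design calls these spleens hepatized. Normal liver was included as a positive control, and the SiO2 spleen, from spleens given silica alone, is the control that the design names. Spleens were taken on day 82, 5 samples were pooled per group (whether this covers liver is not said), and strain, age and vehicle are not given in the labels. All groups share the RNA protocol, which is written for blood and removes globin messages. With 1 array per group there is no replicate, so no test was possible and no p-value is given. A difference was called by size, at 2-fold, and a value behind ± is the technical error of a log2 difference as computed from the scanner's signal errors, which leaves out all spread between animals and is based on 1 array a side.

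Hepatocytes take bile salts and organic ions from portal blood through carriers of their basolateral membrane, and pump bile salts, phospholipid, sterols and conjugated drugs into the bile canaliculus through ATP-driven exporters of the apical membrane. Slc10a and Slco proteins carry bile salts and bulky organic anions, Slc22a proteins carry smaller organic cations and anions, Slc47a proteins exchange cations for protons, and the ABC families use ATP. Many of these genes serve hepatocytes and kidney tubules, whereas others work in mitochondria, macrophages, lymphocytes or the endothelium.

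Levels below are log2 intensities from which the array's 75th percentile was subtracted, so that 0 is that percentile (an intensity of 515, 390 and 569 in the SiO2-3TF-3C spleen, normal liver and the SiO2 spleen). Levels can be set side by side between arrays for the same probe, not between genes. Spots that the scanner software marked as well above background made up 81.3%, 77.2% and 79.9% of 43020, in the same order. Among the 74 members, 61 (82.4%) were well above background in the SiO2-3TF-3C spleen, 58 (78.4%) in normal liver and 50 (67.6%) in the SiO2 spleen. The liver count leaves out Abcb11, whose liver spot was set aside as non-uniform. That spot was marked as well above background. Abcb11 stays among the 74 of the liver share, and outside the 10 counted at the end of this paragraph. The corresponding shares of all genes were 84.6%, 80.9% and 83.2%, so in the SiO2 spleen alone the members' share lay over 10 percentage points below that of all genes. On all 3 arrays 46 members were well above background, and on none were 11, namely Abcb5, Slc10a4, Slc22a8, Slc22a19, Slc22a22, Slc47a2, Slco1a5, Slco1a6, Slco1c1, Slco6c1 and Slco6d1. A further 10 were well above background in the SiO2-3TF-3C spleen and normal liver but not in the SiO2 spleen.

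Marker genes show what the samples held. All 8 hepatocyte markers were well above background in the SiO2-3TF-3C spleen and in normal liver, and 6 were in the SiO2 spleen, where Ttr and Apoa1 were not. Their summed level, as a multiple of the 75th percentile, was 242 in the SiO2-3TF-3C spleen, 556 in normal liver and 1.39 in the SiO2 spleen. The brightest probes of a list carry most of such a sum, so dimmer markers weigh little in it. All 5 B cell markers were well above background on every array, with summed levels of 89.9, 52.1 and 131 in the same order, so the normal liver array carried B cell transcripts too. In bulk RNA, fewer cells of a type and less RNA per cell cannot be told apart.

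Of 61 members measured in at least 1 of the spleens, 18 were higher by 2-fold or more in the SiO2-3TF-3C than the SiO2 spleen, where 5.29% of all genes were. At least 2-fold lower was 1 member, where 1.38% of all genes were. The other 42 lay between, and the median log2 difference was 0.14, against -0.15 over all genes. Of 62 members measured in at least 1 of normal liver and the SiO2 spleen, 26 were higher by 2-fold or more in liver (15.1% of all genes) and 10 at least 2-fold lower (16.7% of all genes), with a median of 0.46 against -0.14. Between the SiO2-3TF-3C spleen and normal liver, 11 of 62 were at a higher level in the SiO2-3TF-3C spleen (10.5% of all genes) and 26 at a lower one (15.5% of all genes), with a median of -0.64 against -0.03. With normexp background correction, 21 of 58 members were higher and 3 lower for liver against the SiO2 spleen. The shares of all genes were then 11.4% and 9.25%. For the SiO2-3TF-3C spleen against liver, 5 of 59 were higher and 20 lower, beside 4.88% and 10.6% of all genes. In the values of the authors' deposited table, 14.5% of all genes were higher and 13.9% lower between the SiO2-3TF-3C spleen and liver. The 3 comparisons share arrays.

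**Figure D1:**
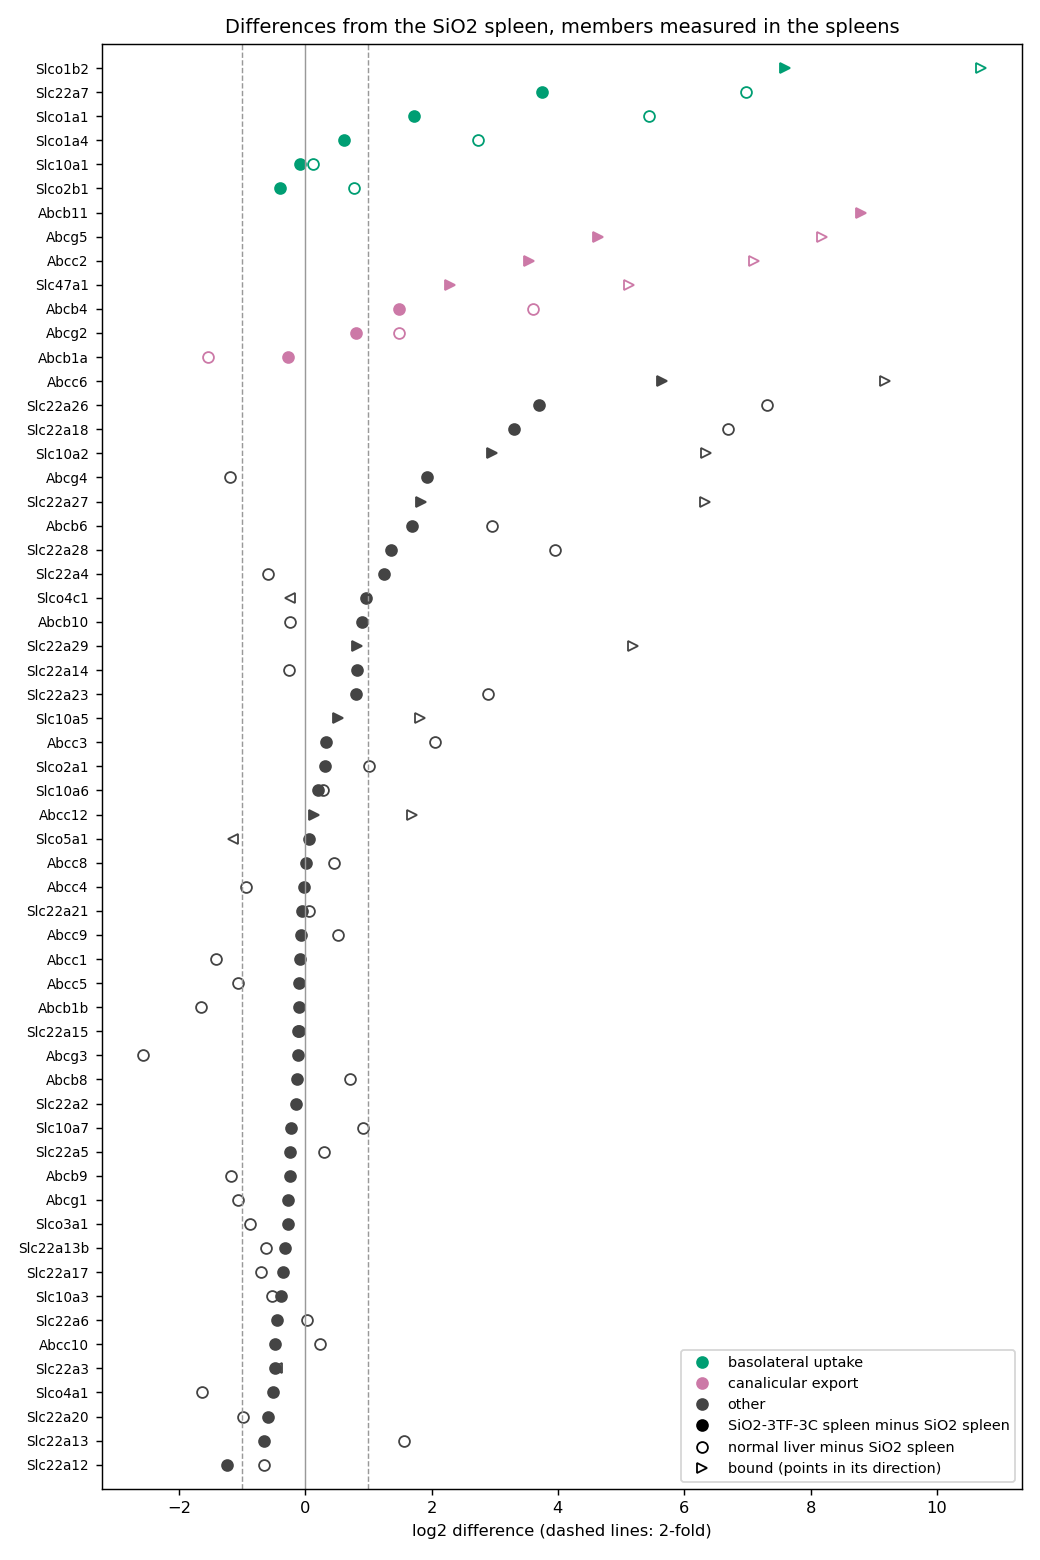
Log2 difference from the SiO2 spleen (horizontal axis) for 59 of the 61 members measured in at least 1 of the spleens, for the SiO2-3TF-3C spleen (filled) and normal liver (open). Triangles are bounds and point in their direction, dashed lines mark 2-fold, and the members right of the upper line in filled symbols number 17, of which 8 are uptake or export carriers.

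Basolateral uptake brings bile salts, bilirubin, hormones and drugs from blood into hepatocytes. Of the 7 uptake members, 4 were higher by 2-fold or more in the SiO2-3TF-3C than the SiO2 spleen (5.29% of all genes), 0 lower and 3 between. Their median log2 difference was 1.73, against 0.86 with normexp background correction and 3.56 over those in the authors' deposited table. In normal liver 5 uptake members were higher than in the SiO2 spleen (15.1% of all genes), the median being 5.45. Promoters are shown for Slco1b2, the member of this group with the largest difference (a bound), and Slc10a1, the bile salt carrier whose probes disagreed. They are taken from RefSeq (GRCm38.p6), from 250 bases before to 50 after an annotated start, on the gene's strand. Slco1b2 lies on the plus strand at chr6:141629268-141629567 and Slc10a1 on the minus strand at chr12:80968656-80968955. Capitals mark words searched on both strands: CAAAGTC (a word of HNF4 sites), AGGTCA (a word of nuclear receptor sites) and TATAAA (a word of TATA boxes), or their reverse complements. TATAAA lies 234 and 227 bases before the start in Slco1b2, and its reverse complement 128 bases before it in Slc10a1. Whether any marked TATAAA serves as a TATA box was not tested.
Slco1b2: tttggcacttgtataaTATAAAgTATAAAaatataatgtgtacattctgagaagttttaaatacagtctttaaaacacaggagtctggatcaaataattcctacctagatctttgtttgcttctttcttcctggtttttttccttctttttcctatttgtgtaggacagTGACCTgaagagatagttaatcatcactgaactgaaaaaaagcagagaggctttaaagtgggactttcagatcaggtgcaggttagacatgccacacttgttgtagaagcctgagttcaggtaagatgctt
Slc10a1: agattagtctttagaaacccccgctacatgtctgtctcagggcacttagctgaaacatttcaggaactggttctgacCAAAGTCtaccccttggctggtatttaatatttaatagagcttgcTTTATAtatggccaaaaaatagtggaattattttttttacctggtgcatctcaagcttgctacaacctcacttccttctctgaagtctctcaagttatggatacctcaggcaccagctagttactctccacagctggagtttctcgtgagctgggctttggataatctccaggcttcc

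Slco1b2, the liver carrier of bilirubin, bile salts and many drugs, had a level of 1.56 in the SiO2-3TF-3C spleen, 4.65 in normal liver and -6.39 in the SiO2 spleen, where it was not well above background. Its signal was at least 194-fold higher in SiO2-3TF-3C than in SiO2 spleen, and at least 1653-fold higher in normal liver. In the SiO2-3TF-3C spleen it reached 11.8% of the liver signal. Its promoter window holds TGACCT, the reverse complement of AGGTCA, 81 bases before the start.

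Slc22a7, a carrier of organic anions, was low but measured in the SiO2 spleen. Its levels were -1.79 in the SiO2-3TF-3C spleen, 1.43 in normal liver and -5.54 in the SiO2 spleen, and it differed by 3.75 ± 0.30 between the spleens. Normal liver was its highest array and the SiO2 spleen its lowest.

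The organic anion carriers of the Slco1a subfamily were closer together between the spleens. Slco1a1, which carries steroid conjugates and bile salts, had levels of -2.58 in the SiO2-3TF-3C spleen, 1.14 in normal liver and -4.31 in the SiO2 spleen, a difference of 1.73 ± 0.23 between the spleens, or 0.86 with normexp. Slco1a4, a carrier of similar substrates that brain endothelium also uses, had -2.49, -0.36 and -3.10 in the same order, a difference of 0.61 ± 0.21, under 2-fold. Slco2b1, a carrier of steroid sulfates found in many tissues, had 2.19 in the SiO2-3TF-3C spleen, 3.37 in normal liver and 2.59 in the SiO2 spleen, a difference of -0.40 ± 0.20 between the spleens. Liver was the highest array for each of these members, and Slco2b1 was lower in the SiO2-3TF-3C than the SiO2 spleen by less than 2-fold.

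Slc10a1, the sodium-dependent carrier that brings bile salts into hepatocytes, was represented by 2 probes that gave different patterns. The brighter probe, which the counts and medians use, had levels of 5.99 in the SiO2-3TF-3C spleen, 6.20 in normal liver and 6.08 in the SiO2 spleen, so that the arrays lay within 0.21 of each other on the log2 scale. The other probe had -1.59, 1.53 and -5.39 in the same order, lay well above background on every array, and differed by 3.81 ± 0.29 between the spleens and by 6.92 ± 0.29 between normal liver and the SiO2 spleen. In the authors' deposited table, which lists the dimmer probe alone of the pair, its log2 values were 7.32, 10.39 and 3.56. With the least bright measured probe of each gene the median difference of the uptake members between the spleens was 3.43 in place of 1.73. Which probe follows the spliced transcript was not tested, since the probe sequences are not used here. The printed window of Slc10a1 holds CAAAGTC 173 bases before the start. RefSeq gives Slc10a1 another start too, whose window (chr12:80968030-80968329) is not printed. That window holds AGGTCA 87 bases before its start and no CAAAGTC.

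**Figure D2:**
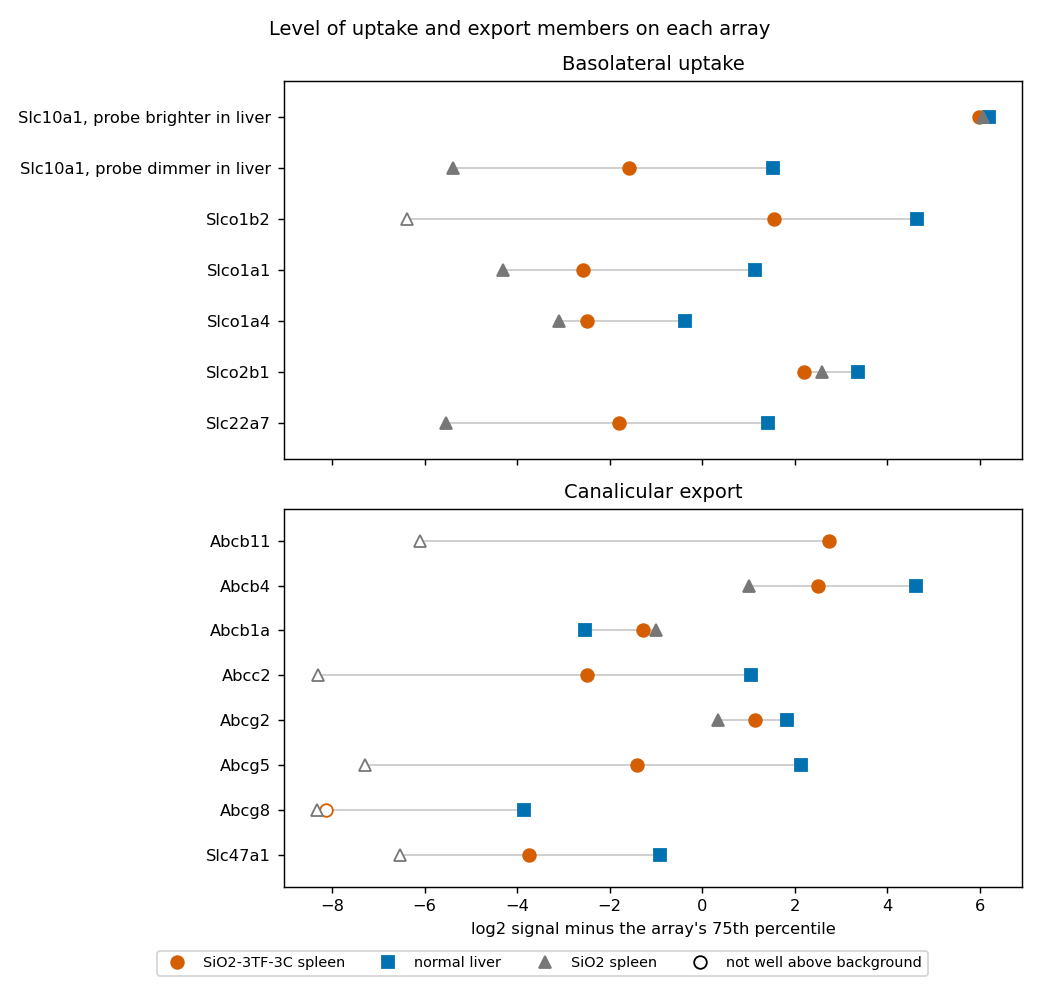
Levels (log2 signal minus the array's 75th percentile) of 6 uptake members, with both probes of Slc10a1, and of the export members, on the arrays of the SiO2-3TF-3C spleen, normal liver and the SiO2 spleen. Open symbols were not well above background, the liver spot of Abcb11 was left out, and Slco1b2 spans from -6.39 in the SiO2 spleen to 4.65 in normal liver.

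Canalicular export comprises the pumps that build bile. Of the 8 export members, 7 were measured in at least 1 of the spleens, with a median log2 difference of 2.30. In the SiO2-3TF-3C spleen 5 of them were higher by 2-fold or more than in the SiO2 spleen (5.29% of all genes), 0 lower and 2 between. The 4 largest of these rest on bounds, and among the 3 members measured on both arrays the median was 0.80. In normal liver 6 of 7 were higher than in the SiO2 spleen (15.1% of all genes) and 1 lower (16.7% of all genes). The median was 3.61, or 1.49 among the 3 measured on both arrays. The windows of 3 members are shown as above, because the data turn on these genes: Abcb11 on the minus strand at chr2:69342567-69342866, Abcc2 on the plus strand at chr19:43782058-43782357 and Abcg5 on the minus strand at chr17:84682962-84683261.
Abcb11: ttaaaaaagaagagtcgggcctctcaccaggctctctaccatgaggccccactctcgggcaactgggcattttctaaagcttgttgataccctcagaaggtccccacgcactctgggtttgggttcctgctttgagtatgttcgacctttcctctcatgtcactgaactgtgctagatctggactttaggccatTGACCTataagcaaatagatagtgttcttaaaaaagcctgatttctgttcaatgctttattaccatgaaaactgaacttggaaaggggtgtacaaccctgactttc
Abcc2: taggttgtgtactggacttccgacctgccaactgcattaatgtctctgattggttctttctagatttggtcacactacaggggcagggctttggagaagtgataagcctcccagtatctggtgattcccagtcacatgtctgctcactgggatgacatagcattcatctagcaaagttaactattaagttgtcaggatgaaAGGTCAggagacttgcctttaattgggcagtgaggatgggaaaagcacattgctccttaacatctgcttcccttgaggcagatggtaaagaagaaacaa
Abcg5: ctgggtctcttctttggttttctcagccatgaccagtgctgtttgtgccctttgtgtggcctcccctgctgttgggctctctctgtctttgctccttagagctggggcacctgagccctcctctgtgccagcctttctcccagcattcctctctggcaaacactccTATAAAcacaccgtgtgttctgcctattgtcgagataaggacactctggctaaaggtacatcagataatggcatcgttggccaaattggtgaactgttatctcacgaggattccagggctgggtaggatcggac

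Abcb11, the bile salt export pump, had a level of 2.75 in the SiO2-3TF-3C spleen and -6.11 in the SiO2 spleen, where it was not well above background, and was at least 443-fold higher in SiO2-3TF-3C than in SiO2 spleen. Its spot on the normal liver array was flagged as non-uniform by the scanner software and was left out. As deposited, the intensities were 3463 in the SiO2-3TF-3C spleen, 15383 in normal liver (the flagged spot) and 8.22 in the SiO2 spleen. Its promoter window holds TGACCT 56 bases before the start.

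Abcc2, the exporter of conjugated bilirubin and glutathione conjugates, had levels of -2.50 in the SiO2-3TF-3C spleen, 1.06 in normal liver and -8.30 in the SiO2 spleen, at least 11.6-fold higher in SiO2-3TF-3C than in SiO2 spleen. Slc47a1, the exchanger that passes organic cations into bile and urine, had -3.75, -0.92 and -6.53 in the same order, at least 4.91-fold higher between the spleens, though with normexp its difference of 0.69 was under 2-fold. In the SiO2 spleen both genes were not well above background, and in normal liver both were at their highest. The window of Abcc2 holds AGGTCA 49 bases before the start.

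Abcg5 and Abcg8 form a single pump, each giving a part of it, that exports sterols into bile. Abcg5 had levels of -1.41 in the SiO2-3TF-3C spleen, 2.14 in normal liver and -7.30 in the SiO2 spleen (not well above background), at least 24.9-fold higher between the spleens. Abcg8 was well above background in normal liver alone, with levels of -8.14 in the SiO2-3TF-3C spleen, -3.86 in normal liver and -8.32 in the SiO2 spleen. Set against normal liver it was at least 5.06-fold lower in the SiO2-3TF-3C spleen, while Abcg5 was 11.7-fold lower there. A reduction as large as that of Abcg5 would place Abcg8 below the lowest level well above background on that array (-6.20), so whether the pair differed could not be read at this signal. The genes lie head to head, and their promoter windows share 209 bases on opposite strands. TATAAA lies 84 bases before the start of Abcg5, and its reverse complement 31 bases before that of Abcg8. These are the same bases, read on opposite strands.

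Abcb4, which moves phosphatidylcholine into bile, was measured on every array, with levels of 2.50 in the SiO2-3TF-3C spleen, 4.63 in normal liver and 1.02 in the SiO2 spleen, a difference of 1.48 ± 0.20 between the spleens. Abcg2, an exporter of urate, porphyrins and drugs, had 1.13, 1.82 and 0.33 in the same order, a difference of 0.80 ± 0.20, under 2-fold. For both, normal liver was highest and the SiO2 spleen lowest. Abcb1a, the drug pump P-glycoprotein, was lowest in normal liver, with -1.27 in the SiO2-3TF-3C spleen, -2.54 in normal liver and -0.998 in the SiO2 spleen. It differed by -0.27 ± 0.21 between the spleens and was lower in normal liver than in the SiO2 spleen by 1.54 ± 0.21 on the log2 scale. Its close copy Abcb1b had -1.51, -3.06 and -1.41 in the same order, and signal shared between these near-identical genes cannot be told apart here.

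The words marked in the windows were counted over all members. RefSeq windows were found for 57 members, 68 windows in all, of 32851 windows genome-wide. CAAAGTC was in 7.35% of member windows and 4.44% of all windows, AGGTCA in 19.1% and 16.3%, and TATAAA in 20.6% and 13.6%. Among the 17 windows of members at least 4-fold brighter in normal liver than in the SiO2 spleen, together with Abcb11, 6 held AGGTCA, 1 CAAAGTC and 5 TATAAA. The single TATAAA stretch shared by Abcg5 and Abcg8 is counted for each of them, both here and in the 20.6%. An exact inverted repeat of AGGTCA with 1 base between its arms was in 0 of 68 member windows and in 3 of all 32851 windows. A word this rare over all windows cannot set the members apart by its absence. Inexact repeats, such as aggccatTGACCT in the printed window of Abcb11, were not counted. These matches describe letters and no binding was measured.

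Beyond uptake and export, 47 of 62 other members were measured in at least 1 of the spleens, and their median log2 difference was -0.05. Of these, 9 were higher by 2-fold or more in the SiO2-3TF-3C spleen (5.29% of all genes), 1 was lower (1.38% of all genes) and 37 were between. In normal liver against the SiO2 spleen, 15 of 48 were higher (15.1% of all genes) and 9 lower (16.7% of all genes). The 9 members that were higher between the spleens fall into those high in liver and those not.

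Abcc6, an efflux pump of the hepatocyte that is needed to keep soft tissues from calcifying, had levels of -0.39 in the SiO2-3TF-3C spleen, 3.13 in normal liver and -7.89 in the SiO2 spleen (not well above background), at least 50.2-fold higher between the spleens. A second probe of Abcc6 gave a bound of at least 5.38-fold in the same direction. The other basolateral exporters were under 2-fold apart between the spleens. Abcc3, which returns conjugates to blood, had 2.34 in the SiO2-3TF-3C spleen, 4.07 in normal liver and 2.01 in the SiO2 spleen, so that it was 4.17-fold higher in liver but differed by 0.33 ± 0.20 between the spleens. Abcc1 and Abcc4, exporters found in many cell types, differed by -0.09 ± 0.20 and -0.03 ± 0.20 between the spleens, and by -1.42 ± 0.20 and -0.94 ± 0.20 between normal liver and the SiO2 spleen.

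Among the 7 measured organic anion carriers of the Slc22a family outside the uptake group, 3 were higher between the spleens (5.29% of all genes). Slc22a26 had levels of -0.74 in the SiO2-3TF-3C spleen, 2.86 in normal liver and -4.45 in the SiO2 spleen, a difference of 3.71 ± 0.23 between the spleens. Slc22a27 had -4.20, 0.28 and -8.30 in the same order, at least 3.57-fold higher, though with normexp its difference of 0.63 was under 2-fold. Slc22a28 had -1.11, 1.48 and -2.48, a difference of 1.36 ± 0.21. Liver was the highest array for all 3 of these, which belong to a group of similar rodent genes, so signal of 1 gene on the probe of another cannot be told apart. A second probe of Slc22a28 had levels of -0.36 in the SiO2-3TF-3C spleen, 2.84 in normal liver and -8.30 in the SiO2 spleen, a bound of at least 51.2-fold between the spleens. The probe used for the counts was the brighter of the pair in the SiO2 spleen alone. Slc22a29, of the same group, had -5.22, -0.86 and -8.16, at least 36.4-fold brighter in liver than in the SiO2 spleen. Its bound between the spleens was at least 1.77-fold.

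**Figure D3:**
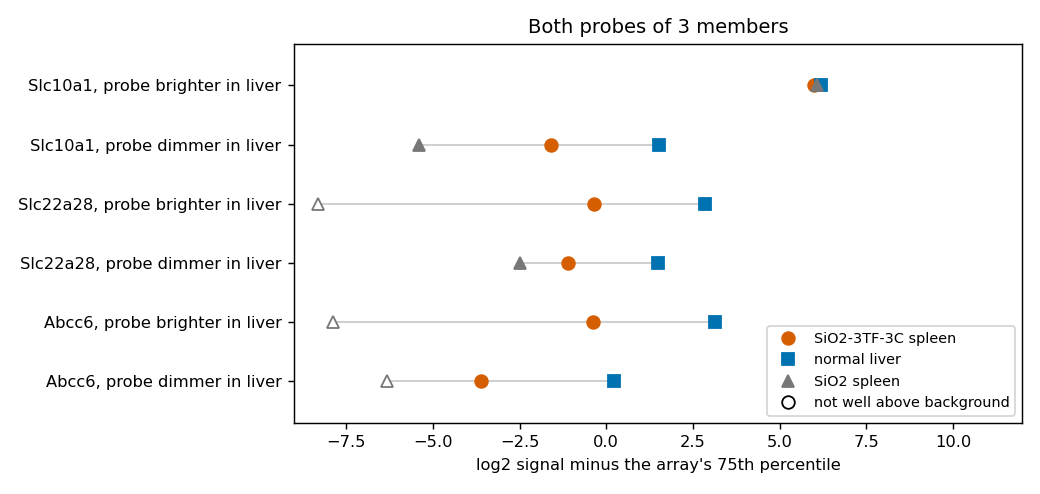
Levels (log2 signal minus the array's 75th percentile) of both probes of Slc10a1, Slc22a28 and Abcc6 on the arrays of the SiO2-3TF-3C spleen, normal liver and the SiO2 spleen (open where not well above background). Both Abcc6 probes and the second Slc22a28 probe give bounds alone between the spleens. The brighter Slc10a1 probe is near 6 on all arrays, while the dimmer one lies at -1.59 in the SiO2-3TF-3C spleen, 1.53 in normal liver and -5.39 in the SiO2 spleen.

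Slc22a12, the urate carrier of the kidney tubule, was the member lower in the SiO2-3TF-3C spleen, with levels of -4.54 in the SiO2-3TF-3C spleen, -3.96 in normal liver and -3.31 in the SiO2 spleen, a difference of -1.23 ± 0.23. With normexp background correction the difference was -0.42, under 2-fold. Markers of the kidney proximal tubule stood beside it with 0 of 4 measured genes at least 2-fold apart between the spleens and summed levels of 0.566, 0.440 and 0.734 in the same order of arrays. The part of such cells in this value was not tested.

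Slc22a18, an imprinted gene of an organic cation carrier-like protein, had levels of 0.06 in the SiO2-3TF-3C spleen, 3.44 in normal liver and -3.25 in the SiO2 spleen, a difference of 3.31 ± 0.21 between the spleens. Slc10a2, the bile salt carrier of the ileum and of cholangiocytes, had -3.08, 0.30 and -6.39 in the same order, at least 7.77-fold higher between the spleens. Of 5 cholangiocyte markers, Epcam (1.13 ± 0.21) and Spp1 (1.43 ± 0.20) were at least 2-fold higher between the spleens. Krt7 and Sox9 differed by 0.02 ± 0.33 and 0.52 ± 0.07, and Krt19 had a bound of at least 0.70. Epcam was 2.77-fold lower in normal liver than in the SiO2 spleen. The summed level of the 5 was 2.14 in the SiO2-3TF-3C spleen, 2.49 in normal liver and 0.898 in the SiO2 spleen, with Spp1 its largest term in both spleens. The part of cholangiocytes in the level of Slc10a2 was not tested.

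Slc22a23, a carrier without a settled substrate, had 0.25 in the SiO2-3TF-3C spleen, 2.34 in normal liver and -0.55 in the SiO2 spleen, 7.39-fold higher in liver and 0.80 ± 0.20 on the log2 scale between the spleens. Slc22a13, a carrier of organic anions, had 1.82, 4.03 and 2.46 in the same order and differed by -0.65 ± 0.20 between the spleens, under 2-fold, while its neighbour in name Slc22a13b had -2.48, -2.78 and -2.17. Liver was the highest array for Slc22a23 and Slc22a13 and the lowest for Slc22a13b.

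The 5 members that work in mitochondria and lysosomes were measured on all 3 arrays. Between the spleens, 1 of them was higher by 2-fold or more (5.29% of all genes). Abcb6, a porphyrin transporter, had levels of 0.42 in the SiO2-3TF-3C spleen, 1.68 in normal liver and -1.27 in the SiO2 spleen, a difference of 1.69 ± 0.20 between the spleens. Abcb10, which supports haem synthesis in the mitochondrial inner membrane, had 2.31, 1.17 and 1.41 in the same order, a difference of 0.91 ± 0.20, under 2-fold, which was 1.05 with quantile normalization and 1.05 in the authors' deposited table, past 2-fold. Liver was highest for Abcb6 and lowest for Abcb10. Their relatives Abcb8 and Abcb9 differed by -0.13 ± 0.20 and -0.25 ± 0.20 between the spleens.

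Abcg4 and Slc22a4 were the 2 of 58 members (3.45%) higher by 2-fold or more in the SiO2-3TF-3C spleen than on both other arrays, where 132 of 16978 genes (0.777%) were. Abcg4, a sterol transporter known from brain and from blood progenitors, had levels of 0.54 in the SiO2-3TF-3C spleen, -2.57 in normal liver and -1.38 in the SiO2 spleen, and differed by 1.92 ± 0.20 from the SiO2 spleen and by 3.11 ± 0.21 from liver. Slc22a4, the carrier of the antioxidant ergothioneine, had 0.15, -1.69 and -1.09 in the same order, and differed by 1.24 ± 0.20 from the SiO2 spleen and by 1.84 ± 0.21 from liver. With quantile normalization and in the authors' deposited table Abcb10 was past 2-fold against both arrays too, as was Slco4c1 with quantile normalization, and with normexp the difference of Slc22a4 from the SiO2 spleen was 0.997, just under 2-fold. The SiO2-3TF-3C spleen was the highest array for both Abcg4 and Slc22a4 and liver the lowest. Of 5 erythroid markers, 4 were higher by 2-fold or more in the SiO2-3TF-3C than the SiO2 spleen, the median log2 difference being 2.32, and 5 of 5 were higher than in liver. Their summed level was 24.1 in the SiO2-3TF-3C spleen, 6.06 in normal liver and 13.0 in the SiO2 spleen. Alas2, with levels of 4.16, 2.44 and 3.56 in the same order, was its largest term on every array and the marker under 2-fold between the spleens. The part of erythroid cells in the levels of Abcg4, Slc22a4, Abcb6 and Abcb10 was not tested. Of 4 megakaryocyte markers 0 were at least 2-fold higher between the spleens, with summed levels of 22.9, 10.2 and 24.4.

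**Figure D4:**
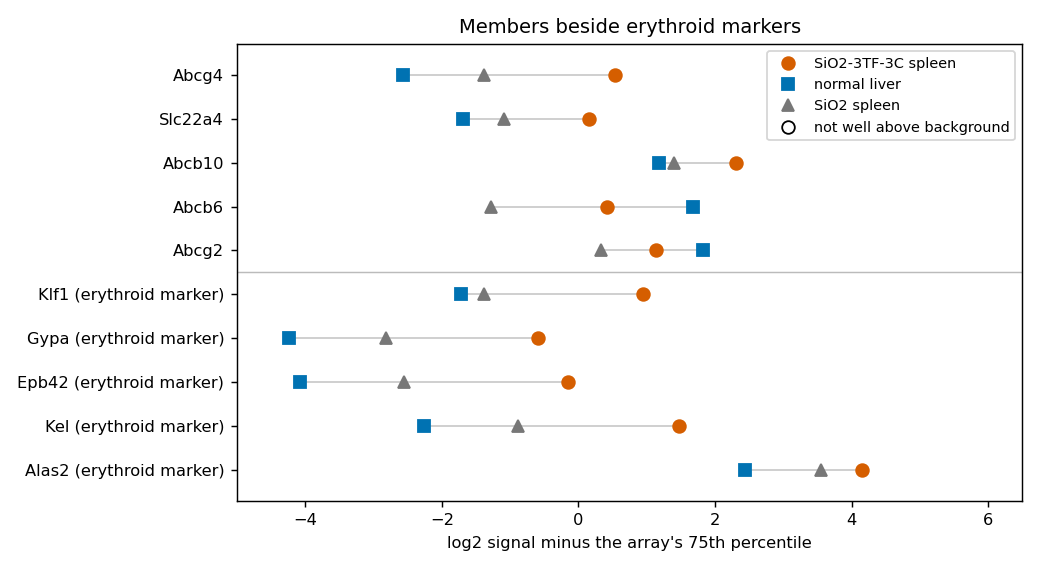
Levels (log2 signal minus the array's 75th percentile) of 5 members and, under the grey line, of the 5 erythroid markers, on the arrays of the SiO2-3TF-3C spleen, normal liver and the SiO2 spleen. Abcg4, Slc22a4, Abcb10 and all 5 markers have the SiO2-3TF-3C spleen as their highest array and normal liver as their lowest, whereas Abcb6 and Abcg2 are highest in normal liver.

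Members that normal liver held at a lower level than the SiO2 spleen, by 2-fold or more, numbered 10 of 62, where 16.7% of all genes were lower. With normexp they numbered 3 of 58, where 9.25% of all genes were lower. The most apart was Abcg3, a rodent gene of the Abcg family, with levels of -1.58 in the SiO2-3TF-3C spleen, -4.02 in normal liver and -1.46 in the SiO2 spleen, so that it was 5.90-fold lower in liver and differed by -0.12 ± 0.21 between the spleens. Abcg1, which exports cholesterol from macrophages, had 2.96, 2.17 and 3.23 in the same order, 2.08-fold lower in liver. The others were Abcb1a, Abcb1b, Abcb9, Abcc1, Abcc5, Abcg4, Slco4a1 and Slco5a1, and apart from Abcg4 all of the 10 were under 2-fold apart between the spleens. Beside these, 4 of 5 B cell and 3 of 5 T cell markers were lower by 2-fold or more in liver than in the SiO2 spleen, as were 2 of 4 macrophage markers, and their part in these values was not tested. T cell markers summed to 10.7, 7.26 and 15.5 and macrophage markers to 61.7, 45.6 and 67.8 in the SiO2-3TF-3C spleen, normal liver and the SiO2 spleen.

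How far the SiO2-3TF-3C spleen came towards normal liver was described for the 20 members at least 4-fold brighter in liver than in the SiO2 spleen, of which 19 were measured on both the SiO2-3TF-3C spleen and the normal liver array. Their signal in the SiO2-3TF-3C spleen was 4.46% to 41.8% of that in liver, with a median of 9.63%. The lowest percentages were those of Slc22a27 (4.46%) and Slc22a29 (4.86%), and the highest those of Abcb6 (41.8%), Abcc3 (30.1%) and Slc22a23 (23.6%). Abcc2 (8.51%), Abcg5 (8.56%) and Abcc6 (8.69%) lay close together, with technical errors wider than the gaps between them. Over the 1321 such genes of the whole array the median was 15.8% and the middle 50% ran from 10.9% to 23.0%. With normexp the medians were 13.1% for the members and 21.6% for all such genes, and where all 3 arrays had to be well above background they were 16.5% for 11 members and 16.9% for 1094 genes. This percentage includes what the SiO2 spleen held already. When that signal was subtracted from both sides, the median was 8.72% for the members and 8.53% for all such genes. Hepatocyte markers had a median of 28.4% before and 28.4% after that subtraction, with a range of 8.99% to 87.9% before it.

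**Figure D5:**
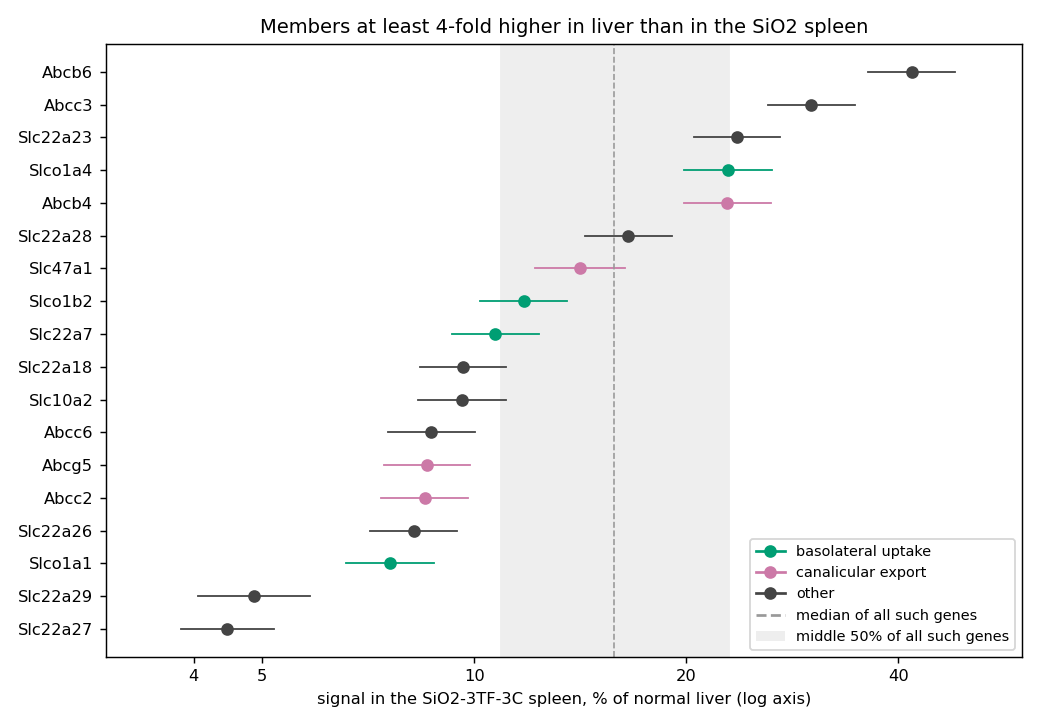
Signal in the SiO2-3TF-3C spleen as a percentage of that in normal liver (log axis) for 18 of the 19 members at least 4-fold brighter in liver than in the SiO2 spleen that were measured on both arrays, with lines for the technical error. The dashed line and grey band give the median (15.8%) and the middle 50% of all 1321 such genes, and 10 of these 18 members lie left of the band.

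Genes that work with these carriers were listed beside them. Of 18 measured partners of hepatic transport, 8 were higher by 2-fold or more in the SiO2-3TF-3C than the SiO2 spleen and 0 lower. Of all genes, 5.29% were higher and 1.38% lower. In normal liver 13 partners were higher than in the SiO2 spleen and 1 lower (15.1% and 16.7% of all genes). The bile acid CoA ligase Slc27a5 and the fatty acid CoA ligase Slc27a2 differed by 7.67 ± 0.23 and 7.12 ± 0.22 between the spleens. Bounds of at least 5.89, 5.06, 4.87 and 2.52 on the log2 scale were found for the glucose carrier Slc2a2, the phosphate carrier Slc17a2, the bile acid conjugating enzyme Baat and Slc17a1. Of the bile salt exporter pair, Slc51b was not higher between the spleens, at -0.40 ± 0.26. Slc51a was not well above background on any array, so its difference could not be read.

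Of 15 measured regulators, 6 were higher by 2-fold or more in the SiO2-3TF-3C than the SiO2 spleen (5.29% of all genes). In normal liver 12 were higher (15.1% of all genes), and 0 were lower in either (1.38% and 16.7% of all genes). Hnf4a, a hepatocyte transcription factor, differed by 8.37 ± 0.35 between the spleens, the bile acid receptor Nr1h4 by 4.48 ± 0.31, the lipid sensor Ppara by 3.996 ± 0.22 and the xenobiotic receptor Nr1i2 by 2.91 ± 0.34. A bound of at least 4.12 on the log2 scale was found for the hepatocyte factor Foxa2. Among the regulators under 2-fold between the spleens were Cebpa (0.31 ± 0.21), Nr0b2 (0.52 ± 0.24) and Nr5a2 (0.23 ± 0.21). Normal liver held Cebpa, Nr0b2 and Nr5a2 at 9.89-fold, 8.77-fold and 8.45-fold higher levels than the SiO2 spleen. Among the ABC genes outside the member families, 2 of 25 measured were higher between the spleens (5.29% of all genes) and 6 of 25 in normal liver (15.1% of all genes). Of 4 Kupffer cell markers 2, and of 4 liver sinusoidal endothelium markers 1, were at least 2-fold higher between the spleens, with summed levels of 15.8 and 18.1 in the SiO2-3TF-3C spleen, 35.7 and 34.0 in normal liver and 12.5 and 16.4 in the SiO2 spleen. The 2 Kupffer cell markers were Clec4f (84.8-fold) and Vsig4 (17.3-fold), while Timd4 and Cd5l were under 2-fold apart. Cd5l was the largest term of the Kupffer cell sum on every array.

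The members named next were not called 2-fold apart between the spleens. The carnitine carrier Slc22a5, the organic cation carrier Slc22a3, the potassium channel subunits Abcc8 and Abcc9, and the prostaglandin carriers Slco2a1 and Slco3a1 differed by -0.24 ± 0.20, -0.47 ± 0.33, 0.02 ± 0.30, -0.06 ± 0.20, 0.31 ± 0.20 and -0.28 ± 0.20 between the spleens. Slco4c1 differed by 0.96 ± 0.29 and Slc22a14 by 0.82 ± 0.25, both under 2-fold, though Slco4c1 was just past it with quantile normalization. Weakly measured members close to background, such as Abcc12 and Slc10a5, had bounds of at least 0.14 and 0.52 on the log2 scale between the spleens. These bounds are minima. Slc10a5 was past 2-fold in the authors' deposited table (1.18) and with no filter on dim probes (2.73). In normal liver Abcc12 and Slc10a5 were at least 3.22-fold and 3.52-fold higher than in the SiO2 spleen. Slc22a16 was well above background in normal liver alone, at least 2.67-fold higher than in the SiO2 spleen.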

How the data were processed

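RNA of the SiO2-3TF-3C spleen, normal liver and the SiO2 spleen was hybridised to 1 Agilent array each (1 dye, Cy3). Per the file headers, the deposited values are linear spot intensities after background subtraction and detrending, extracted with Feature Extraction 11.0.1.1 (design 026655, build mm9), whereas the submitters' processing notes name 9.1. The authors' deposited table holds log2 values, since every column followed the matching array most closely (r of 0.993 to 0.996 with log2 intensity), with medians of 5.91 and a common maximum of 16.58, the normalization not given in the sources used here. It lists 47 of the 74 members.

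From these intensities, control spots and spots flagged as outliers were left out, spots of a probe averaged, log2 taken and each array's 75th percentile subtracted. Probes were named through RefSeq accessions (GRCm38.p6), which gave a symbol to 27038 of 39112 probes (69.1%), and the probe with the highest mean log2 level over the 3 arrays stood for a gene. Where 1 side of a comparison was not well above background, the dim side was set to the lowest level well above background on its array, or to its own level if higher, and the fold is a bound. No p-value was computed. Python 3.11.15, R 4.3.3 and limma 3.58.1 were used, and the code was tested on simulated data.

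The members and lists were chosen with earlier results of these data known. Values in every sample are given for uptake and export members, for others 2-fold apart between the spleens or 4-fold apart between liver and the SiO2 spleen, for the 5 brightest of each array and for paralogues. Others, such as Abcb10, were named after their values were seen. A few genes that enter the counts and medians are not reported here by name or in the plots. Alternatives were normexp (offset 50, on median instead of mean spot signals), quantile normalization, median scaling, the deposited log2 values, other rules for probes and dim signals, and a 3-fold rule. Alternatives added after seeing the data kept the flagged spots or took the least bright probe, and those for the percentage of liver were all added then. Precision is limited by having 1 array per group.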

Additional observations from a re-analysis of the deposited data

How the results depend on the processing

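No paired analysis was possible because each group has 1 array. Of 1674 values of single members under the alternatives, 1499 stayed within their error, 175 moved by more, and 33 changed sign, all of them under 2-fold as reported. The 1499 include 138 values of members well above background on all 3 arrays and 152 of members measured on both sides. These settings only drop members, so none of their values could move. Taking the mean or the least bright probe has an effect where a gene has several probes, as 15 members do. Normexp moved 84 values and left 94 within their error. Between the spleens, 10 of 46 members well above background on all 3 arrays were at least 2-fold higher (4.27% of all genes). Those lower numbered 0 with normexp (0.231% of all genes), 2 with no filter on dim probes (2.69%) and 0 at 3-fold. The uptake median was 0.86 with normexp, 3.56 in the deposited values, 1.17 on all 3 arrays, 1.17 with members measured on both sides alone and 3.43 with the least bright probe, and the export median 1.37, 4.10, 0.80 and 0.80 in the first 4 of these.

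Between normal liver and the SiO2 spleen, 14 of 46 members were higher with all 3 arrays required (14.0% of all genes). Those lower numbered 3 with normexp (9.25% of all genes) and 3 at 3-fold. The uptake median was 3.79 with normexp, 7.04 in the deposited values, 4.09 on all 3 arrays, 4.09 on both sides alone and 6.92 with the least bright probe. The export median was 2.58, 5.51, 1.49 and 1.49 in the first 4, 4.47 without a filter and 4.35 with flagged spots kept.

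Between the SiO2-3TF-3C spleen and normal liver, higher members numbered 5 with normexp (4.88% of all genes), 7 in the deposited values (14.5%) and 3 at 3-fold. Lower members numbered 14 on all 3 arrays (14.2% of all genes). The uptake median was -2.81 with normexp, -2.84 with quantile normalization and -2.67 on all 3 arrays, and the export median -1.90 with normexp, -3.07 in the deposited values, -0.69 on all 3 arrays and -2.82 without a filter. The median percentage of liver was 13.1 with normexp and 16.5 on all 3 arrays. Fewer members enter where all 3 arrays or both sides are required and in the deposited values; for the other settings the cause was not tested. The median of all genes shifted by 0.22 (liver against the SiO2 spleen) and -0.14 (SiO2-3TF-3C spleen against liver) with normexp, and in the second of these by 0.12 with quantile normalization and 0.14 in the deposited values. Members not well above background have bounds alone, and signal over background limits them.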
